A study of Mus with 4 samples.

Results

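The CDK inhibitor genes are the 7 genes Cdkn1a, Cdkn1b, Cdkn1c, Cdkn2a, Cdkn2b, Cdkn2c and Cdkn2d, taken by name from the 21887 protein-coding genes of the annotation, and all 7 were found. No measured value was used in this choice, though earlier results of these data were known when it was made. Each gene was read in a TBX3 ChIP-Seq track in 3 places, which are the bases within 1 kb of either annotated end, the bases inside the gene and the bases within 10 kb outside it. Mouse primary hepatocytes carried the construct pT2-SVNeo-EF1-eGFP-P2A-Tbx3-HA in all 4 libraries, so that TBX3 with an HA tag was overexpressed from an EF1 promoter together with eGFP after Sleeping Beauty transposition and G418 selection. In 2 libraries chromatin was immunoprecipitated with an anti-HA antibody, and the 2 Input libraries hold chromatin of the same cells without that step. Cells without the construct were not analysed here, and an overexpressed protein can occupy sites that its normal level does not.

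The authors deposited a single MACS2 track, in which each base carries the −log10 of a Poisson p-value for the ChIP pileup (the number of extended ChIP reads over that base) against the level expected from Input. This value is called the score. The track has no value per library, so no score below has a replicate error, and the ranks among genes describe this track and not a population of animals. The pileup and the expected level behind a score were inferred, and the intervals given for pileups are exact 95% Poisson intervals that cover the counting of reads only. These intervals treat reads as independent, so they are too narrow if both mates of a read pair were counted. At the genome-wide expected level of 2.43 reads, 7 reads give a score of 2.44, 8 reads 3.02, 9 reads 3.65, 10 reads 4.31 and 11 reads 5.01. A score of 5.46 is needed for an adjusted p of 0.05 after Benjamini-Hochberg adjustment over all bases, and 0.0142% of bases have a score of at least 5. The inferred ChIP reads number 30093759, with a mean pileup on chromosome 4 of 0.701 times and on chromosome 9 of 0.747 times the autosome median.

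CDK inhibitors bind cyclin-dependent kinases and halt the cell cycle, mostly in G1. The Cip/Kip members Cdkn1a (p21), Cdkn1b (p27) and Cdkn1c (p57) bind complexes of cyclins with several kinases, whereas the INK4 members Cdkn2a (p16INK4a), Cdkn2b (p15), Cdkn2c (p18) and Cdkn2d (p19INK4d) bind CDK4 and CDK6 and keep the retinoblastoma protein active. Cdkn2a also encodes p19ARF from another first exon, which acts on p53 through MDM2. Cdkn2a and Cdkn1a are known from other cell types as genes that T-box repressors such as TBX2 and TBX3 turn down. The study cites earlier work in hepatic progenitors, where Tbx3 promotes proliferation, likely by repression of p19ARF. The comparison asks whether the overexpressed TBX3 gave ChIP signal at these genes beyond that of other genes in the same cells.

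No region was called at any of the 7 genes. A region had to hold scores of 5 or more over at least 200 bp, in which breaks no longer than 30 bp were bridged. Of all protein-coding genes, 147 (0.672%) had such a region inside the gene or within 10 kb outside it, so a count of 0 among 7 lies close to this background and is no result about the members. At the gene ends, 0 of 7 members reached a score of 5, against 789 of all protein-coding genes (3.6%). With any single base of score 5 or more inside the gene or within 10 kb of it counted, 1 of 7 members passed, which was Cdkn1a, against 4822 genes (22.0%). No base at any member reached an adjusted p of 0.05.

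**Figure D1:**
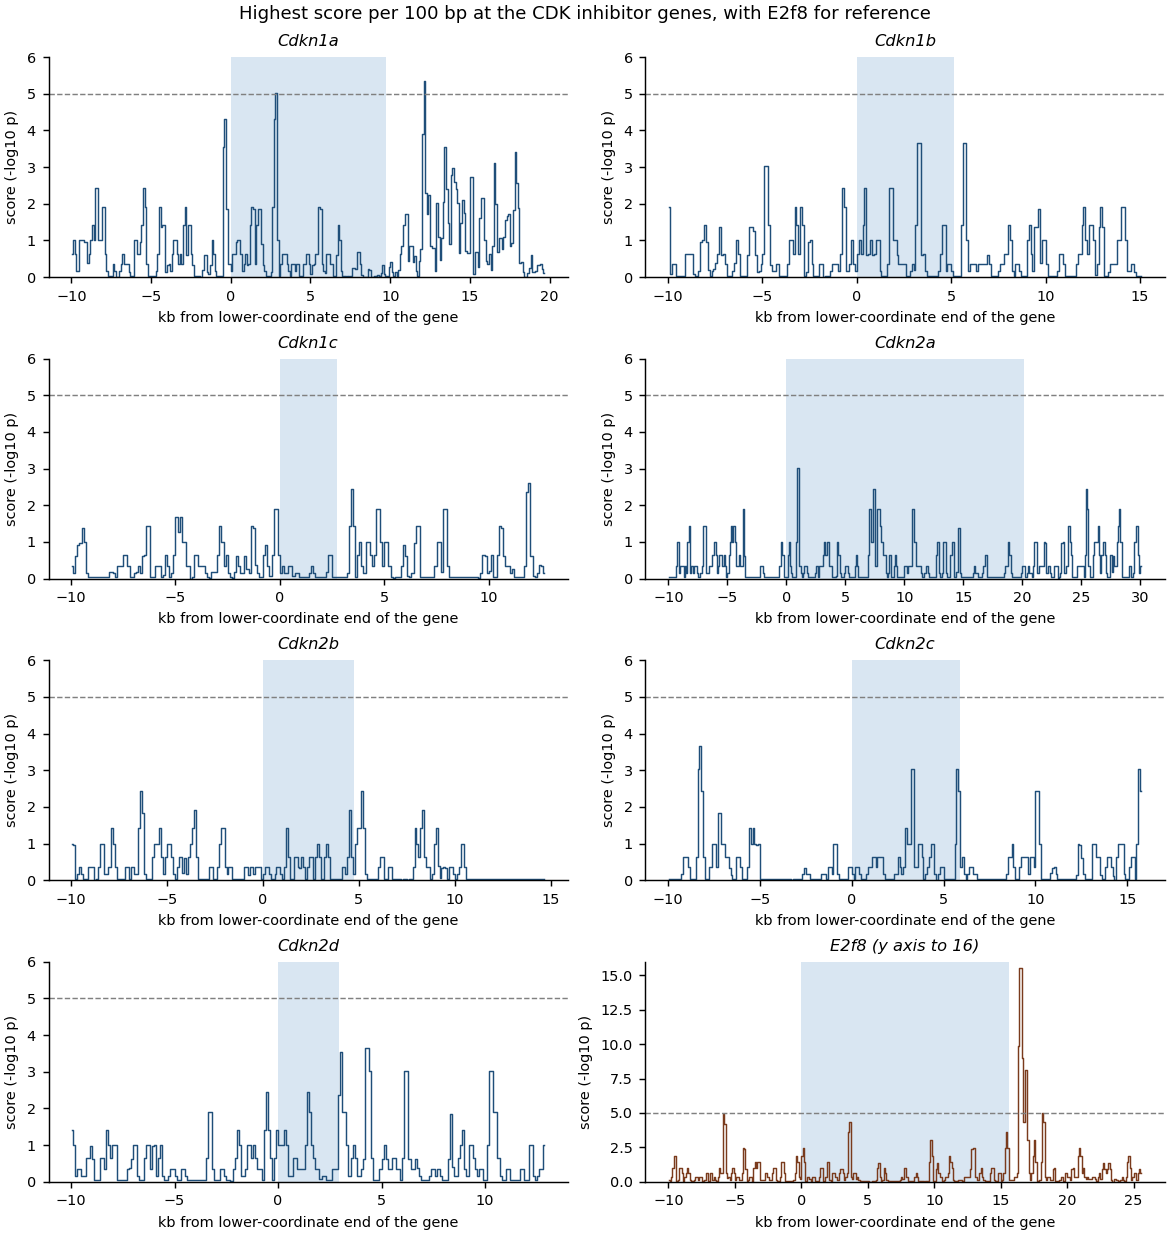
Highest score in each 100 bp (y axis, −log10 p) against the distance from the lower-coordinate end of the gene (x axis, kb) for the 7 CDK inhibitor genes and for E2f8 on a longer y axis, with the annotated gene shaded and a dashed line at the cutoff of 5. The curves of the members stay under the line except for narrow spikes of 5.01 inside Cdkn1a and 5.35 above it, while the E2f8 curve reaches 15.53 beside its higher-coordinate end.

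E2f7 and E2f8 encode atypical E2F repressors, and the study reports TBX3 binding at both from its ChIP-Seq, with ChIP-qPCR. They give the height of a strong site in the same track, and were taken because binding was reported there. The highest score was 22.79 within 1 kb of the ends of E2f7, from 31 reads (interval 21.1 to 44.0) against 2.69 expected. It was 15.53 at E2f8, from 23 reads (14.6 to 34.5) against 2.43 expected. E2f7 lies on chromosome 10, whose mean pileup was 1.41 times the autosome median, the highest of any chromosome. The largest pileup behind the highest score of any end of a CDK inhibitor gene was 10 reads (4.80 to 18.4) against 2.43. Its interval overlaps that of E2f8 and not that of E2f7, but each count was picked at the highest score of its windows. The intervals may also be too narrow, so their overlap or its absence does not test a difference between the sites.

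The 14 gene ends of the 7 members scored from 0.357 to 4.31, from pileups of 2 to 10 reads, with a median of 2.44 beside 1.90 over the 43774 ends of all protein-coding genes. A score of at least 3 was reached at 5 of these 14 ends (35.7%) and at 16.6% of all ends. By the higher of the 2 ends the order was Cdkn1a, Cdkn1b, Cdkn2d, then Cdkn2a level with Cdkn2c, then Cdkn1c level with Cdkn2b. Neighbours in this order differed by at most 1 read, and even the first and last, with 10 reads (4.80 to 18.4) and 7 reads (2.81 to 14.4), had overlapping counting intervals. The median of the members was 3.02 at the ends, 3.02 inside and 3.65 outside, beside 2.44, 3.02 and 3.55 over all protein-coding genes. Each of these medians differs from its background by no more than the step that 1 read makes.

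**Figure D2:**
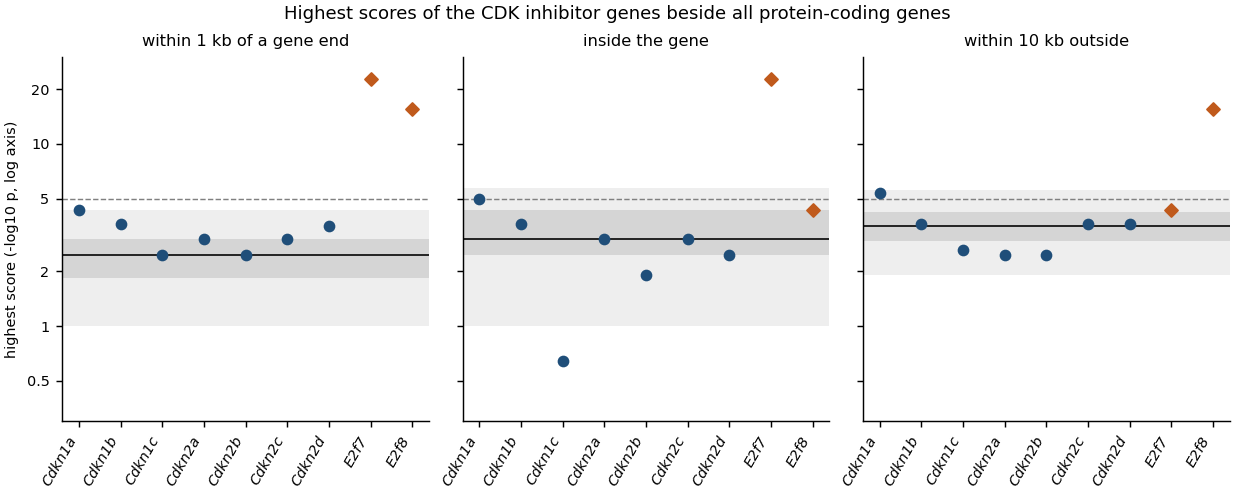
Highest score (y axis, −log10 p on a log axis) of the 7 CDK inhibitor genes (circles) and of E2f7 and E2f8 (diamonds) at the gene ends, inside the gene and within 10 kb outside, over the median (line), the middle 50% (dark band) and the 5th to 95th percentile (light band) of all protein-coding genes, with a dashed line at 5. The members lie within the light band in every panel except Cdkn1c inside the gene, at 0.641, which lies below it.

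Cdkn1a (gene 12575) encodes p21, the inhibitor that p53 induces after DNA damage. It lies on chromosome 17 of GRCm38 from 29090979 to 29100722 and had the highest score of the family in all 3 places. At its lower-coordinate end the score was 4.31 from 10 reads (4.80 to 18.4) against 2.43 expected, 375 bp outside the gene, with an adjusted p of 0.122. The score at its higher-coordinate end was 0.638, so the 2 ends of this gene differed more than those of any other member. The gene-end score was matched or passed by 7.20% of protein-coding genes, and by 9.63% of those on chromosome 17.

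Inside Cdkn1a the highest score was 5.01, from 11 reads (5.49 to 19.7) against 2.43 expected, 2805 bp from the lower-coordinate end, with an adjusted p of 0.0687. The stretch of bases scoring at least 3 around it was 91 bp long, and 10 of those bases reached 5. A score as high was found inside 13.9% of protein-coding genes and inside 5.36% of those within 1.5 times the length of Cdkn1a. The highest score outside was 5.35, 2364 bp above the higher-coordinate end, with an adjusted p of 0.0632 and 3 bases at 5 or more. That score came from 22 reads (13.8 to 33.3), but 7.54 were expected from Input there, so the pileup was 2.92 times the expected level, compared with 4.52 times at the site inside the gene.

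This outside score stood in a block of high Input. In each of 10 consecutive 1 kb bins, starting 1 kb inside the higher-coordinate end, the mean expected level was between 5.08 and 15.6 reads, and the mean ChIP pileup between 1.26 and 17.3. The ratio of the 2 means in these bins ran from 0.248 to 1.23. The ChIP pileup was high where Input was high, and over the high-Input bases within 10 kb above the gene the ratio of the means was 1.03. At one base, 3700 bp above the gene, the expected level was 96.0 reads and the pileup 124, with a score of 2.58. The mean expected level over Cdkn1a and its surroundings was 5.15 reads, and it was as high at 76 protein-coding genes, or 0.347%. The mean pileup there was 0.858 times the mean expected level, a ratio that 1.28% of protein-coding genes matched. The median over all of them was 0.605. Over the high-Input bases of the gene and 10 kb around it, the ratio was 0.955 at Cdkn1a, from 11173 bases. It was 0.0374 to 0.509 at the other members, from 21 to 1304 bases. Why these ratios differ was not tested. Of the 6 stretches of score 3 or more at Cdkn1a, 4 lay in this block. With bases of at least 2 times the genome-wide expected level left out, the highest outside score was 4.31 and is the one beside the lower-coordinate end, whereas the 5.01 inside the gene was unchanged. What made Input high there was not tested.

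**Figure D3:**
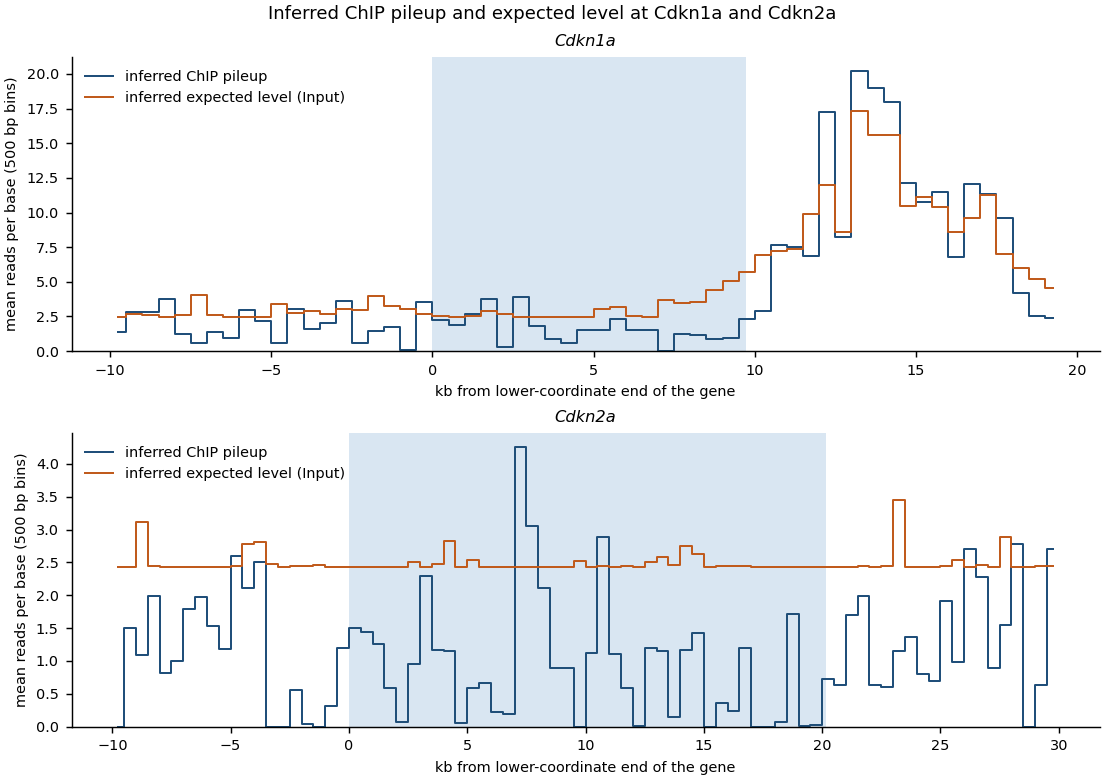
Mean reads per base in 500 bp bins (y axis) of the inferred ChIP pileup (blue) and of the expected level from Input (orange) against the distance from the lower-coordinate end (x axis, kb) at Cdkn1a and Cdkn2a, with the annotated gene shaded. Above Cdkn1a both curves rise together (ratio of means 1.03 over the high-Input bases), while at Cdkn2a the expected level stays near 2.43 reads and the pileup is mostly under it. A pileup under the expected level is common. Over the gene and 10 kb around it, the median ratio of all protein-coding genes was 0.605, beside 0.435 at Cdkn2a and 0.858 at Cdkn1a.

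Cdkn1b (gene 12576) encodes p27, an inhibitor of cyclin E and CDK2 in resting cells. It lies on chromosome 6 from 134920401 to 134925525. The score was 2.44 at the lower-coordinate end and 3.65 at the higher-coordinate end, the latter from 9 reads (4.12 to 17.1) against 2.43 expected, 558 bp outside the gene, between it and the long noncoding RNA gene Lockd. The adjusted p there was 0.198. Inside the gene the highest score was 3.65 too, in a stretch of 100 bp that was the longest with a score of at least 3 at any member. Cdkn1b stood out from most other members by its mean score at the ends, 0.485, which 15.5% of protein-coding genes matched, beside 14.7% by its highest score. The share by highest score depended on the setting. With windows of 500 bp, which leave out the site at 558 bp, the score was 2.44 and the share 32.8%. With read pairs counted once, as approximated under the processing below, the share was 28.0%. Its mean pileup at the ends was 0.782 times the mean expected level, beside a median of 0.592 over all protein-coding genes.

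Cdkn1c (gene 12577), which encodes p57 and is expressed from the maternal allele, lies on chromosome 7 from 143458339 to 143461059. The scores were 1.90 at the lower-coordinate end and 2.44 at the higher-coordinate end. Inside the gene the highest score was 0.641, from 3 reads (0.619 to 8.77) against 2.43 expected, and 97.4% of protein-coding genes had one as high. Among genes within 1.5 times its length the share was 95.6%, so the gene ranked low among short genes too. The highest score outside was 2.62, from 9 reads against 3.34 expected, 9218 bp above the gene and beyond the long noncoding RNA gene Gm33663. No base of this locus reached 3, which also held for Cdkn2b and for 11.7% of protein-coding genes.

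Cdkn2a (gene 12578) lies on chromosome 4 from 89274473 to 89294619 and is the longest of the 7. The highest score at its lower-coordinate end was 3.02, from 8 reads (3.45 to 15.8) against 2.43 expected, with an adjusted p of 0.298, and at its higher-coordinate end 0.999, from 4 reads (1.09 to 10.2). The 8 reads lie 982 bp inside the gene at the rim of the 1 kb window, and with windows of 500 bp the score at the ends was 0.999. The same stretch as these 8 reads, 62 bp long, holds the highest score inside the gene. The share of protein-coding genes with a gene-end score as high was 29.0%, and it depended strongly on the setting. It was 90.9% with windows of 500 bp, 45.4% with windows of 2 kb and 6.95% with the expected level scaled to chromosome depth. Outside, the highest score was 2.44, and 93.1% of protein-coding genes had one as high. Scores in all 3 places identical to those of Cdkn2a were found at 89 other protein-coding genes, of which the first by name are 2510039O18Rik, AI597479 and Adam1b. The gene table gives no strand and no first exons, so the start sites of p16INK4a and p19ARF could not be told apart within this gene.

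Cdkn2b (gene 12579), the p15 gene that transforming growth factor beta induces, follows on chromosome 4 from 89306289 to 89311032. Its lower-coordinate end had the lowest score of the 14, 0.357 from 2 reads (0.242 to 7.22). The score was 2.44 at the higher-coordinate end, from 7 reads (2.81 to 14.4) 386 bp outside the gene, and 1.90 inside. Cdkn2a and Cdkn2b share the bases between them, and the same 7 reads gave the highest score above Cdkn2a, 5334 bp from it, and below Cdkn2b, 6336 bp from it. Both also border or overlap the long noncoding RNA gene Gm12610, which begins 560 bp above Cdkn2a, runs across Cdkn2b to 89518621 and had a highest inside score of 5.01. That score lies more than 10 kb from both members, since the highest within that distance was 3.02 at Cdkn2a and 2.44 at Cdkn2b. Above Cdkn2b a stretch of 4237 bp, up to the rim of the 10 kb window, held no ChIP read, the longest such stretch at any member.

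Cdkn2c (gene 12580) encodes p18 and lies farther along chromosome 4 from 109660876 to 109666756. Its scores were 0.999 at the lower-coordinate end and 3.02 at the higher-coordinate end, where 8 reads (3.45 to 15.8) lie 95 bp inside the gene. The highest score outside was 3.65 from 9 reads, 8285 bp below the gene and inside the long noncoding RNA gene 9630013D21Rik. Another 8 reads lie 9784 bp above the gene, just below the annotated gene Faf1, which encodes a factor that binds FAS. Of its 5 stretches with a score of at least 3, the longest was 45 bp.

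Cdkn2d (gene 12581) encodes p19INK4d and lies on chromosome 9 from 21288459 to 21291421, with Kri1 489 bp below it and Ap1m2, a clathrin adaptor gene, 3193 bp above it. The score was 2.44 at the lower-coordinate end and 3.55 at the higher-coordinate end, the latter from 9 reads (4.12 to 17.1) against 2.50 expected, 85 bp outside the gene. A second site of 9 reads with a score of 3.65 lies 1339 bp above the gene. All 5 stretches of score 3 or more at Cdkn2d were above the gene, and 72 bp was the longest. Those with summits 3245 and 7326 bp above the gene lie inside Ap1m2. The mean score at the ends of Cdkn2d was 0.497, the highest of the 7. That value was matched by 13.8% of all protein-coding genes and by 3.33% of those on chromosome 9.

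Read depth differed between the genes. The mean pileup over the gene and 10 kb on either side was 4.42 reads at Cdkn1a, 1.65 at Cdkn1b, 1.32 at Cdkn1c, 1.09 at Cdkn2a, 1.02 at Cdkn2b, 1.08 at Cdkn2c and 1.61 at Cdkn2d. The 3 genes on chromosome 4 were thus the most thinly covered, with 52.0% to 55.7% of bases free of any ChIP read, compared with 22.7% at Cdkn1a. Divided by the mean of the own chromosome, the pileup was 2.56 at Cdkn1a, 1.24 at Cdkn2d and between 0.843 and 0.911 at the other 5. The value of Cdkn1a rests on the block of high Input. Its mean pileup was 9.63 reads within 10 kb above the gene, but 1.65 inside and 1.92 within 10 kb below. The expected level never falls under the genome-wide level, so on a thin chromosome the same number of reads gives a score that fewer genes reach. A gene-end score of 3.02, as at Cdkn2a and Cdkn2c, was reached by 29.0% of all protein-coding genes and by 10.8% of those on chromosome 4. For Cdkn2b the 2 shares were 50.5% and 22.7%, and for Cdkn2d 16.4% and 6.08%. With the genome-wide expected level multiplied by the ChIP depth of each chromosome, and higher Input levels kept, the gene-end score of Cdkn2a was 4.13. No member end reached 5. Input levels under the original genome-wide level cannot be read from the track, so 4.13 may be too high. Differences between the INK4 and the Cip/Kip genes cannot be told apart from the chromosomes that hold them, because all 4 INK4 genes lie on chromosomes 4 and 9, while chromosomes 7, 17 and 6, which hold the Cip/Kip genes, had depths of 0.905, 1.0 and 1.04 times the autosome median.

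The highest score and the mean score of the gene ends ordered the members differently. By the highest score Cdkn1a was first, but its mean score at the ends, 0.276, was matched by 68.3% of protein-coding genes. That mean joins 2 unlike ends. At the lower-coordinate end the mean score was 0.486, with a mean pileup of 1.93 against 2.68 expected. The higher-coordinate end, where the block of high Input starts, had 0.0659, with 2.15 against 5.83. Cdkn2a and Cdkn2c went from shares of 29.0% by highest score to 84.8% and 83.9% by mean score, but among genes of chromosome 4 their shares by mean score were 52.7% and 50.9%. For Cdkn2b the share by mean score was 67.9% among all genes and 30.2% on chromosome 4. Cdkn1b and Cdkn2d had a similar rank by both measures in windows of 1 kb, and they were the members whose pileup at the ends, at 0.782 and 0.825 times the expected level, was above the median of all genes. At the other 5 members this ratio was between 0.353 and 0.487. The median of the members by mean score was 0.276, the value of Cdkn1a, beside 0.333 over all protein-coding genes. The small difference in highest score thus changed its sign. Mean scores with scaled chromosome depth or without high-Input bases are not given here, so this is not read as a deficit of the members. A highest score at this depth rests on 7 to 10 reads at the ends, whereas the mean takes in all bases of the windows.

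**Figure D4:**
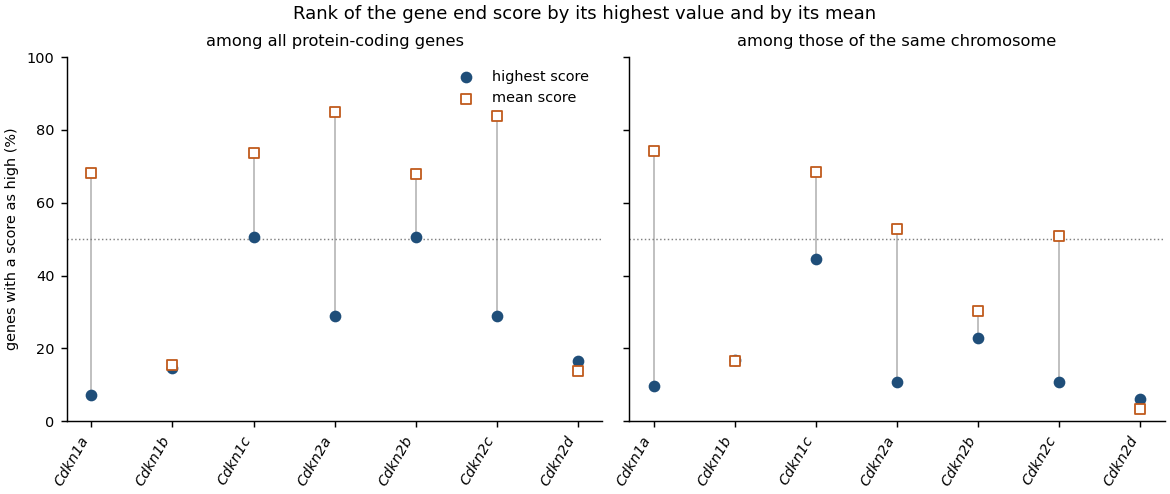
Percentage of protein-coding genes with a gene-end score at least as high (y axis) for each CDK inhibitor gene, by the highest score (filled circles) and by the mean score (open squares), among all protein-coding genes (left) and among those of the same chromosome (right), with a dotted line at 50%. By highest score the members lie between 7.20% and 50.5% in the left panel, and by mean score only Cdkn1b (15.5%) and Cdkn2d (13.8%) are below 50% there, joined in the right panel by Cdkn2b (30.2%).

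Over the 7 genes with their surroundings, 20 stretches had a score of at least 3, of which 5 were inside a gene and 15 outside, and 15 stood at the genome-wide expected level. With the bases that the surroundings of Cdkn2a and Cdkn2b share counted once, they covered 0.448% of bases. Across the genome 0.320% of bases had a score of at least 3, but this share was counted differently. The share of the members takes whole stretches, which may hold bridged breaks. The genome share takes single bases and includes chromosome Y, whose mean pileup was 0.0394 times the autosome median. An excess at the members therefore cannot be read from these shares. Among the members, Cdkn1b had the largest share of bases in stretches, 0.927%, followed by Cdkn1a with 0.783% and Cdkn2d with 0.727%. The longest stretch, 100 bp, is shorter than the minimum of 200 bp for a region, so lowering the cutoff to 3 left the count of members with a region at 0. At that cutoff 3.02% of protein-coding genes had a region.

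The kinases and cyclins that the inhibitors act on, and the factors that control the inhibitors, were read in the same way. In a list of 20 cell cycle genes around G1 (mostly cyclins, their kinases, pocket proteins and E2F genes, with Cdc25a, Skp2 and Cks1b and the mitotic genes Ccnb1 and Cdk1), 1 had a gene-end score of at least 5 (5.0%, beside 3.6% of all protein-coding genes). It was Cdk4, the kinase that INK4 proteins bind, at 7.31. Cdk4, like Cdk1 and E2f7, lies on chromosome 10, the chromosome of highest depth (1.41 times the autosome median). The medians of this list were 2.44 at the ends, 3.65 inside and 3.55 outside, beside 2.44, 3.02 and 3.55 over all protein-coding genes. In a list of 18 regulators of CDK inhibitor genes (p53 and MDM2, Polycomb proteins, T-box, SMAD and FOXO factors among them), 2 had a gene-end score of at least 5 (11.1%, beside 3.6%). They were Trp53, the p53 gene, and Eed, a Polycomb subunit, each at 5.01. The medians of this list were 2.44 at the ends, 3.67 inside and 3.02 outside. This list includes Tbx3 itself, with an inside score of 7.10, whose coding sequence is also in the construct. Reads from the construct cannot be told apart here from reads of the gene. The inside medians of both lists were not compared with genes of similar length. The counts of both lists are a description and were not tested. The gene with scores most like those of Cdkn1a in the 3 places was Cdk1, the mitotic kinase, with 4.31, 5.01 and 5.24, at a Euclidean distance of 0.0252 on the scale of log2(score + 1). Dennd5b and Gpc5 followed, both at 0.0784. These distances use the outside score of Cdkn1a in the block of high Input, which was 4.31 with high-Input bases left out. By mean score at the ends Cdkn1a and Cdk1 were less alike, at 0.276 and 0.483, though the lower-coordinate end of Cdkn1a alone had 0.486.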

How the data were processed

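The authors mapped TBX3 ChIP and Input reads with Bowtie2, sorted them with SAMtools and used MACS2, and the submitters' processing notes name the build mm10. Versions, duplicate handling and which libraries entered the track are not given in the sources used here. The deposited values are −log10 p-values per base, with 0 other columns of per-sample values, so no test between replicates was possible and depth per library is unknown.

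From the deposited −log10 p-values, scores were read within 1 kb of both ends of each gene (RefSeq GRCm38.p6, which is used here without strand), inside it and within 10 kb outside. Adjusted p-values are Benjamini-Hochberg values over all 2722472431 bases of the 21 main chromosomes. The pileup and expected level behind each score were inferred by inverting the Poisson tail, with a pair found for 99.998% of bases. This step was tested on simulated data, where 99.991% of bases were recovered. The region call, run on the simulated scores themselves, found 15 of 15 strong and 0 of 15 weak sites. The strong sites held far more reads than any end of a member and the weak ones hardly any added reads. Heights like those at the members were thus not tested.

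The members, the lists and the settings were chosen with earlier results of these data known. The genes named are the 7 members, annotated genes within 10 kb of them, E2f7 and E2f8, and genes of the 2 lists with a gene-end score of at least 5. The 3 genes nearest in scores to Cdkn1a and to Cdkn2a are named too, as is Tbx3, the gene carried by the construct. Alternative windows, cutoffs, backgrounds, pair counting and chromosome depth were tried. The track holds no read pairs. Counting them once was approximated at each base by dividing the inferred pileup, rounded down, and the expected level by 2. Scaling to chromosome depth multiplied the genome-wide level, which is the lower limit, by the ChIP depth of the chromosome. Input levels above this limit were kept. Promoter and T-box motif sequences were not used here. Scripts ran under Python 3.11.15 with numba 0.67.0, scipy 1.17.1 and numpy 2.4.6, tables were handled in pandas 2.3.3, and plots were drawn in matplotlib 3.10.9.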

Additional observations from a re-analysis of the deposited data

How the results depend on the processing

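The count of 0 CDK inhibitor genes with a called region was also 0 at cutoffs of 3 and 10, at minimum lengths of 100 and 50 bp, with gaps of up to 100 bp joined, with 20 kb outside, with read pairs counted once and with the expected level scaled to chromosome depth. In these settings 0.146% (cutoff of 10) to 7.34% (minimum length of 50 bp) of protein-coding genes had a region. A count of 0 thus lies close to the background in each. The count was 4 (Cdkn1a, Cdkn1b, Cdkn2a and Cdkn2d) with a minimum length of 50 bp and a cutoff of 3 together, a setting chosen after seeing the data under which 64.6% of protein-coding genes have a region. The excess of the members' median at the gene ends, 0.582, was 0.400 with windows of 2 kb, 0.535 with windows of 500 bp, 0.634 with read pairs counted once and 1.23 with the expected level scaled to chromosome depth, and by mean score it reversed to -0.0569, and the cause was not tested. Inside, the difference of 0 became 0.160 with the scaling. Outside, the difference of 0.0962 became 0 with windows of 20 kb and with read pairs counted once. Dividing the pileup and the expected level by 2, as for pairs counted once, lowers any high score by arithmetic. It took the 2 scores of Cdkn1a over 5 to 2.79 inside and 3.26 outside. Of 84 values of a member's highest score under the alternatives, 81 stayed on the same side of 5. The 3 that changed belong to the inside and outside scores of Cdkn1a, the only ones over 5 in the main setting. Several alternatives can only lower a score, so this count is no measure of robustness. The share of genes as high moved in 104 values and kept its level in 22. Leaving out high-Input bases, ranking within a chromosome, and a minimum length of 50 bp were added after seeing the data, as were the region calls with pairs counted once or scaled depth. No library could be left out, because libraries are not separate in the track, and the strength a site needs for a call at these genes was not measured. No paired analysis was possible because the track holds no column for a single library. Windows at the start site alone and the T-box motif were not run, for lack of strand and sequence in the table used here.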
